A study of Rattus rattus with 18 samples.

Results

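*Nr4a1* (ENSRNOG00000007607), *Junb* (ENSRNOG00000042838) and *Btg2* (ENSRNOG00000003300) are 3 immediate early genes, which were followed as single rows in all 18 RNA-seq libraries of the rat hypothalamic arcuate nucleus (ARC). They were 3 of the 32883 genes counted in each library, and all 3 passed the filter on low counts in both experiments. The first experiment examined diet-induced obesity (DIO) and voluntary running in female Wistar rats and gave 3 chow fed sedentary (CS), 3 high-fat fed sedentary (HFS) and 4 high-fat fed running (HFR) libraries. HFS and HFR rats were raised on a diet with 60% of its energy from fat, and all rats of these groups then spent 4 weeks housed singly, in cages with a running wheel (HFR) or without one (CS and HFS). The second experiment gave 4 libraries from rats infused with a miR-211 mimic and 4 from rats infused with a miR-211 hairpin inhibitor. These were also female Wistar rats, chow fed and cannulated in the third ventricle. They were fasted overnight and received the agent in a transfection reagent when food was returned at dark onset. The ARC was taken 6 h later. No uninfused or control-oligo library was analysed here, so a difference between mimic and inhibitor does not show which of them moved. The labels name the organism as *Rattus rattus*, while the study describes Wistar rats and the reads were aligned to the genome Rnor6. Every library title carries the code WSH, which the study's text does not explain.

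Immediate early genes are transcribed within minutes of a stimulus from factors already present in the cell. Their mRNA is mostly short-lived and follows recent activity. In the brain these genes are widely used as a readout of neuronal and glial activation. *Nr4a1* encodes an orphan nuclear receptor of the NR4A family, which binds DNA and regulates transcription without a classical ligand. *Junb* encodes a Jun family subunit of the dimeric transcription factor AP-1, in which it pairs with Fos proteins. *Btg2* encodes an antiproliferative protein of the BTG and TOB family, which recruits the deadenylase complex that shortens poly(A) tails. The hypothalamic ARC holds neurons that sense nutrients and hormones and regulate feeding, and immediate early genes there respond to fasting, refeeding and injury as well as to the state of the animal at death.

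The genes were chosen with part of these values known. The level of *Nr4a1* in HFS and in HFR against CS and that of *Btg2* in HFS against CS led to the choice. So did those of *Junb* and *Btg2* in mimic against inhibitor. These values are given as a description with no p-value. Where a call on them is mentioned, it is not independent support. The other comparisons were tested in edgeR's quasi-likelihood fit over all genes, with a threshold on the adjusted p of 0.1 in the DIO experiment and 0.05 in the miR-211 experiment. Levels are CPM, the count of a gene as a share of all counts of its library scaled by TMM factors, which correct for library composition. Since transcript ends were counted, CPM needs no correction for transcript length, although genes can still differ in how well their ends are captured. Levels were not compared between the experiments, which used different RNA extraction kits and separate normalization.

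Depth was between 4680736 and 7494207 counts on genes in the DIO libraries and between 1275263 and 6615927 in the miR-211 libraries. *Nr4a1* was read from 53 to 276 counts per DIO library and from 15 to 98 per miR-211 library, which left a counting error of up to 13.7% and 25.8% of the value. *Junb* had 118 to 321 and 135 to 1805 counts, and *Btg2* had 47 to 138 and 32 to 272. Of the 14 neuron markers looked for, the 4 with an identifier in the sources (*Pomc*, *Ghrh*, *Gad2* and *Snap25*) were detected in every group and together held between 1260 and 2200 CPM in a library (marker sums are CPM of raw counts, without TMM factors). CS replicate 2 and HFS replicate 2 match none of the study's own per-animal columns for the DIO experiment, while the other 8 DIO libraries each match 1, so results are also given without both where this moves them. In bulk tissue, fewer cells of a type and less RNA per cell cannot be told apart.

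*Nr4a1* was higher in both high-fat groups than in chow. Its level was 10.5, 11.8 and 11.4 CPM in the CS libraries (replicates 1 to 3), 25.2, 30.9 and 28.2 CPM in HFS, and 32.3, 26.9, 33.0 and 37.5 CPM in HFR (replicates 1 to 4). The lowest high-fat library, HFS replicate 1, stood above the highest chow library by more than the counting intervals of either, which reached up to 15.0 CPM in CS replicate 2 and down to 21.3 CPM in HFS replicate 1. Means were 11.2 ± 0.659 CPM in CS (SD, n = 3), 28.1 ± 2.85 in HFS (SD, n = 3) and 32.4 ± 4.35 in HFR (SD, n = 4). The fitted log2 difference was 1.32 ± 0.20 (SE) in HFS over CS, a 2.5-fold level with a 95% interval of 1.86 to 3.37. It was 1.53 ± 0.19 in HFR over CS, a 2.89-fold level with an interval of 2.17 to 3.85. Both values share the CS libraries. Over all 11892 genes tested, 1 gene (0.00841%) was called in HFS against CS and 2 (0.0168%) in HFR against CS, and *Nr4a1* was called with the smallest p in each, which is how it was chosen. The call in HFS against CS held in 1 of the 10 fits that left out a library (without HFR replicate 4) and in 6 of 9 other settings, being lost with the replicate number as a block, with only the 2 groups compared, and without both CS replicate 2 and HFS replicate 2. The call in HFR against CS held in 9 of 10 fits that left out a library, being lost without CS replicate 1, and in 8 of 9 other settings, being lost with the block.

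**Figure D1:**
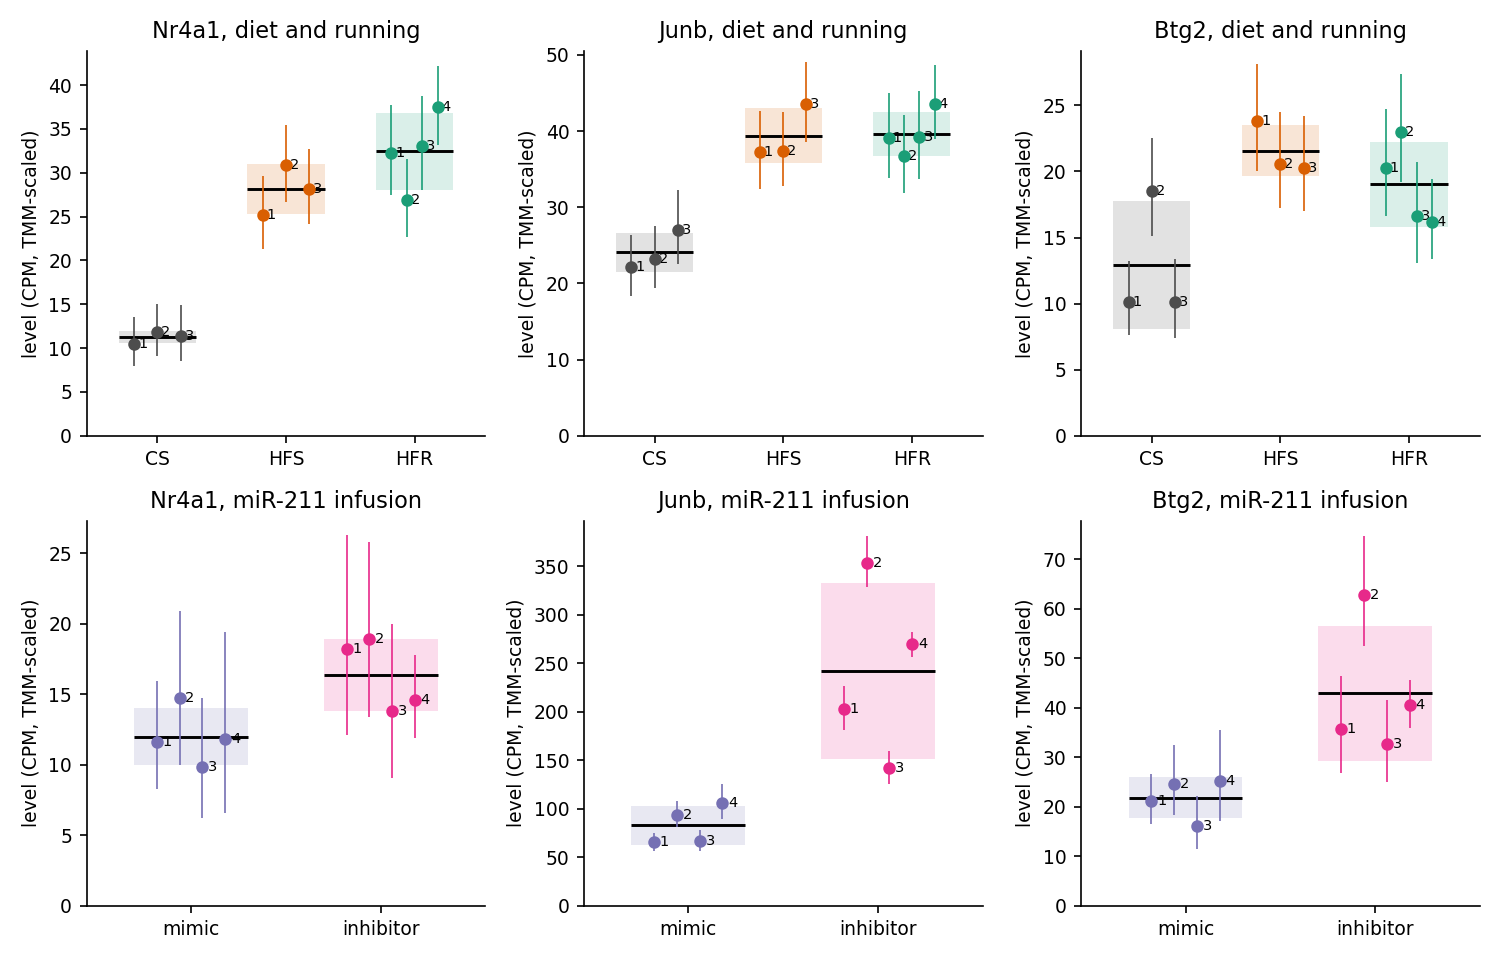
Level of *Nr4a1*, *Junb* and *Btg2* (y axis, TMM-scaled CPM, from 0) in each library by group (x axis), in the DIO experiment (top) and the miR-211 experiment (bottom). Points are libraries labelled with their replicate number, thin bars are 95% counting intervals, black lines are group means and shaded boxes are ± 1 SD. All HFS and HFR points of *Nr4a1* and *Junb* lie above all CS points, CS replicate 2 lies among the high-fat points for *Btg2* at 18.5 CPM, and inhibitor replicate 2 is the highest library for all 3 genes.

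*Junb* lay higher in the high-fat libraries too, by a smaller fold. It read 22.1, 23.2 and 27.0 CPM in CS, 37.2, 37.4 and 43.6 CPM in HFS, and 39.1, 36.7, 39.2 and 43.6 CPM in HFR. No high-fat library overlapped a chow library, and HFS and HFR covered nearly the same range. Means were 24.1 ± 2.61 CPM in CS (SD, n = 3), 39.4 ± 3.59 in HFS (SD, n = 3) and 39.6 ± 2.9 in HFR (SD, n = 4). The log2 difference was 0.71 ± 0.17 (SE) in HFS over CS, or 1.64-fold with an interval of 1.27 to 2.11, and in edgeR it did not pass (adjusted p = 0.974, unadjusted p = 0.000838). In HFR over CS it was 0.72 ± 0.16, or 1.65-fold with an interval of 1.3 to 2.09, and again did not pass in edgeR (adjusted p = 0.463, unadjusted p = 0.000467), while DESeq2 called it (adjusted p = 0.0505). By p, *Junb* had rank 6 of all genes tested in the first comparison and rank 12 in the second. The exact two-sided permutation test over libraries gave p = 0.1 for HFS against CS and p = 0.0571 for HFR against CS, which are the smallest values these group sizes allow. In HFS, 4.81% of all genes tested had every library above every CS library, in HFR 2.57% had, and in both together 0.765% had, or 91 genes. *Nr4a1* and *Junb* were among those 91, and *Btg2* was not. *Nr4a1* was chosen on both of these comparisons, so its place there is not independent support, while the choice of *Junb* did not rest on them.

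*Btg2* was higher in HFS than in CS by description, with 1 chow library standing apart. It read 10.1, 18.5 and 10.1 CPM in CS, 23.8, 20.6 and 20.3 CPM in HFS, and 20.3, 23.0, 16.6 and 16.2 CPM in HFR. CS replicate 2, one of the libraries that match no per-animal column, lay within the HFR range and above the other chow libraries, whose counting intervals ended at 13.2 and 13.4 CPM. Means were 12.9 ± 4.87 CPM in CS (SD, n = 3), 21.6 ± 1.92 in HFS (SD, n = 3) and 19.0 ± 3.25 in HFR (SD, n = 4). The log2 difference was 0.74 ± 0.27 (SE) in HFS over CS, where the groups did not overlap. Counting intervals did overlap, at 15.1 to 22.5 CPM in CS replicate 2 and 17.0 to 24.2 CPM in HFS replicate 3. *Btg2* was not called in edgeR in this comparison. A call was made in 0 of 9 other settings and in 0 of 10 fits that left out a library. Without CS replicate 2 the log2 difference was 1.10 ± 0.26, and without both CS replicate 2 and HFS replicate 2 it was 1.13 ± 0.29. In HFR over CS it was 0.55 ± 0.25 and did not pass in edgeR (adjusted p = 0.995, unadjusted p = 0.0434), with overlapping groups (exact permutation p = 0.171). That value was 0.92 ± 0.26 without both libraries, still short of the threshold (edgeR adjusted p = 0.651), and 0.92 without CS replicate 2 alone (edgeR adjusted p = 0.497). It was 0.42 without CS replicate 1 and 0.41 without CS replicate 3. *Nr4a1* and *Junb* moved far less when both libraries were left out, from 1.32 to 1.29 and from 0.71 to 0.73 in HFS over CS.

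Running on the high-fat diet was compared with the sedentary high-fat group for all 3 genes, and none differed beyond the spread between libraries. In edgeR the log2 difference of HFR over HFS was 0.21 ± 0.18 (SE) for *Nr4a1*, with a 95% interval of -0.17 to 0.59 (adjusted p = 0.989). For *Junb* it was 0.01 ± 0.16, with an interval of -0.33 to 0.34 (edgeR adjusted p = 0.995), and its sign turned under several settings. For *Btg2* it was -0.18 ± 0.24, with an interval of -0.70 to 0.33 (edgeR adjusted p = 0.989). The 2 groups overlapped in each gene, and exact permutation tests over libraries gave p = 0.229, 0.857 and 0.286, where 0.0571 was the smallest possible. As folds of HFR over HFS, the 95% intervals were 0.887 to 1.51 for *Nr4a1*, 0.798 to 1.27 for *Junb* and 0.617 to 1.26 for *Btg2*. A rise or a fall with running within these limits is not excluded. No gene of the 11892 (0.0%) was called in edgeR in this comparison, 504 had an unadjusted p under 0.05, and DESeq2 also called 0.

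Between mimic and inhibitor *Junb* differed most of the 3 genes and *Nr4a1* least. *Junb* and *Btg2* were chosen on this comparison and *Nr4a1* was not, so nothing is read from this order. *Junb* read 65.3, 94.0, 67.0 and 106 CPM in the mimic libraries (replicates 1 to 4) and 203, 354, 142 and 270 CPM in the inhibitor libraries. The lowest inhibitor library, replicate 3, was above the highest mimic library, replicate 4, and the inhibitor libraries spread over a wider range. Means were 83.1 ± 20.2 CPM in mimic (SD, n = 4) and 242 ± 91.0 in inhibitor (SD, n = 4). The log2 difference of mimic over inhibitor was -1.56 ± 0.28 (SE), or 2.95-fold more in inhibitor. It ranged from -1.74 to -1.33 when each library was left out in turn.

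*Btg2* placed the inhibitor libraries in the same order as *Junb* did. It read 21.2, 24.7, 16.2 and 25.2 CPM in mimic and 35.7, 62.9, 32.6 and 40.6 CPM in inhibitor, without overlap. Means were 21.8 ± 4.14 CPM in mimic (SD, n = 4) and 43.0 ± 13.7 in inhibitor (SD, n = 4). The log2 difference was -0.99 ± 0.23 (SE), or 1.99-fold more in inhibitor, and ranged from -1.10 to -0.76 over the libraries left out. The smallest of these differences came without inhibitor replicate 2, which held the highest level of all 3 genes. Of the 9625 genes tested, 3.71% had every mimic library below every inhibitor library and 43 (0.447%) were called in edgeR, 42 of them lower in mimic (0.436%). *Junb* and *Btg2* were not among the called genes in edgeR, and nothing is read from these shares because this comparison led to their choice.

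*Nr4a1* was the 1 gene of the 3 for which this comparison could be tested. It read 11.6, 14.7, 9.81 and 11.8 CPM in mimic and 18.2, 18.9, 13.8 and 14.6 CPM in inhibitor. Mimic replicate 2 lay above inhibitor replicates 3 and 4, so the groups overlapped. Means were 12 ± 2.03 CPM in mimic (SD, n = 4) and 16.4 ± 2.54 in inhibitor (SD, n = 4). The log2 difference was -0.44 ± 0.22 (SE), with a 95% interval of -0.92 to 0.04, and did not pass in edgeR (adjusted p = 0.567, unadjusted p = 0.0694). The exact two-sided permutation test gave p = 0.0857, where 0.0286 was the smallest possible. Mimic replicate 4 held 15 *Nr4a1* counts, with a counting interval of 6.60 to 19.4 CPM, and the log2 difference was -0.43 without that library.

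Markers of other cells were read beside these values, as far as the sources gave an identifier. Sums over markers are given as CPM of raw counts without TMM factors. The 4 of 8 leukocyte markers with an identifier (*S100a8*, *Lcn2*, *Lyz2* and *Cd74*) summed to 218 to 477 CPM in mimic and 380 to 1870 CPM in inhibitor. On the TMM-scaled level, *S100a8* lay between 1.57 and 6.85 CPM in mimic and between 4.54 and 68.2 CPM in inhibitor. *S100a8*, *Lcn2* and *Lyz2* have an identifier here because the study selected them on this comparison, so their direction is not independent evidence. The other markers named here have one because the study selected them in the DIO experiment. *Tyrobp* was selected in both experiments. Their direction in a comparison that selected them is not independent evidence either. The microglia markers *C1qa*, *C1qb*, *C1qc* and *Tyrobp* (4 of 9) summed to 303 to 441 CPM in mimic and 370 to 748 CPM in inhibitor. In the DIO experiment they summed to 276 to 423 CPM in CS, 393 to 522 in HFS and 298 to 395 in HFR. The leukocyte markers summed to 81.3 to 202 CPM in CS, 172 to 226 in HFS and 54.9 to 168 in HFR. These DIO sums rested mainly on *Lyz2* and *Cd74*. *Lcn2* had TMM-scaled means of 1.92, 2.93 and 2.58 CPM in CS, HFS and HFR, and *S100a8* did not pass the filter there. The 4 neuron markers summed to 1260 to 1870 CPM in CS, 1830 to 1990 in HFS, 1280 to 2090 in HFR, 1810 to 2200 in mimic and 1370 to 1940 in inhibitor. The oligodendrocyte marker *Mbp* (1 of 6) is also given as CPM of raw counts. It read 7770 to 12000 CPM in CS, 11600 to 17800 in HFS and 10300 to 14200 in HFR. In mimic it read 5290 to 9950 CPM and in inhibitor 6310 to 9540 CPM. *Gfap* and *Nes* (2 of 9 astrocyte and tanycyte markers) summed to 477 to 1370 CPM in CS, 1030 to 2700 in HFS, 382 to 1660 in HFR, 1130 to 2910 in mimic and 1940 to 2680 in inhibitor. The part of these cells in the levels of *Nr4a1*, *Junb* and *Btg2* was not tested. None of the vascular, pituitary or blood markers had an identifier in the sources.

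How the 3 genes varied together was measured within groups, as the correlation of log2 CPM over libraries after each group's mean was removed. In the miR-211 experiment every pair had a positive coefficient over the 8 libraries. *Junb* and *Btg2* were closest, with Pearson r = 0.88 (exact permutation p = 0.0156, adjusted p = 0.0938 over the 6 pairs of both experiments) and Spearman rho = 0.76 (exact permutation p = 0.059). *Nr4a1* with *Btg2* gave r = 0.70 (exact permutation p = 0.0816, adjusted p = 0.24) and rho = 0.76 (exact permutation p = 0.059). *Nr4a1* with *Junb* gave r = 0.59 (exact permutation p = 0.16, adjusted p = 0.24) and rho = 0.57 (exact permutation p = 0.174). Without the 2 libraries farthest from the median of the first gene, these coefficients were 0.77, 0.62 and 0.57 in the same order. Inhibitor replicate 2 was the highest and replicate 3 the lowest of the inhibitor libraries in all 3 genes, and mimic replicate 3 was the lowest mimic library in *Nr4a1* and *Btg2*. No pair passed an adjusted p of 0.05. Without mimic replicate 1 the coefficient of *Junb* with *Btg2* was 0.92 and did pass (exact permutation, adjusted p = 0.0417). The points of a pair share their libraries and depth.

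In the DIO experiment the pairs went different ways over the 10 libraries. *Nr4a1* with *Junb* gave r = 0.53 (exact permutation p = 0.142, adjusted p = 0.24) and rho = 0.52 (exact permutation p = 0.155), and r was 0.21 without the 2 libraries farthest from the median of *Nr4a1*. *Junb* with *Btg2* gave r = -0.45 (exact permutation p = 0.339, adjusted p = 0.382) and rho = -0.43 (exact permutation p = 0.382), and r was -0.29 without the 2 farthest libraries. *Nr4a1* with *Btg2* gave r = -0.28 (exact permutation p = 0.382, adjusted p = 0.382) and rho = -0.25 (exact permutation p = 0.483), and r was 0.13 without the 2 farthest libraries. This coefficient depended on CS replicate 2, the chow library high in *Btg2*. In *Nr4a1* that library was the highest in chow by little, at 11.8 CPM beside 10.5 and 11.4 CPM. Without it r was -0.86 (exact permutation p = 0.0104, adjusted p = 0.0469), and without both CS replicate 2 and HFS replicate 2 it was -0.89 (exact permutation p = 0.0104, adjusted p = 0.0469). HFR replicate 2 was the lowest HFR library in *Nr4a1* and the highest in *Btg2*, and r was 0.00 when it alone was left out.

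**Figure D2:**
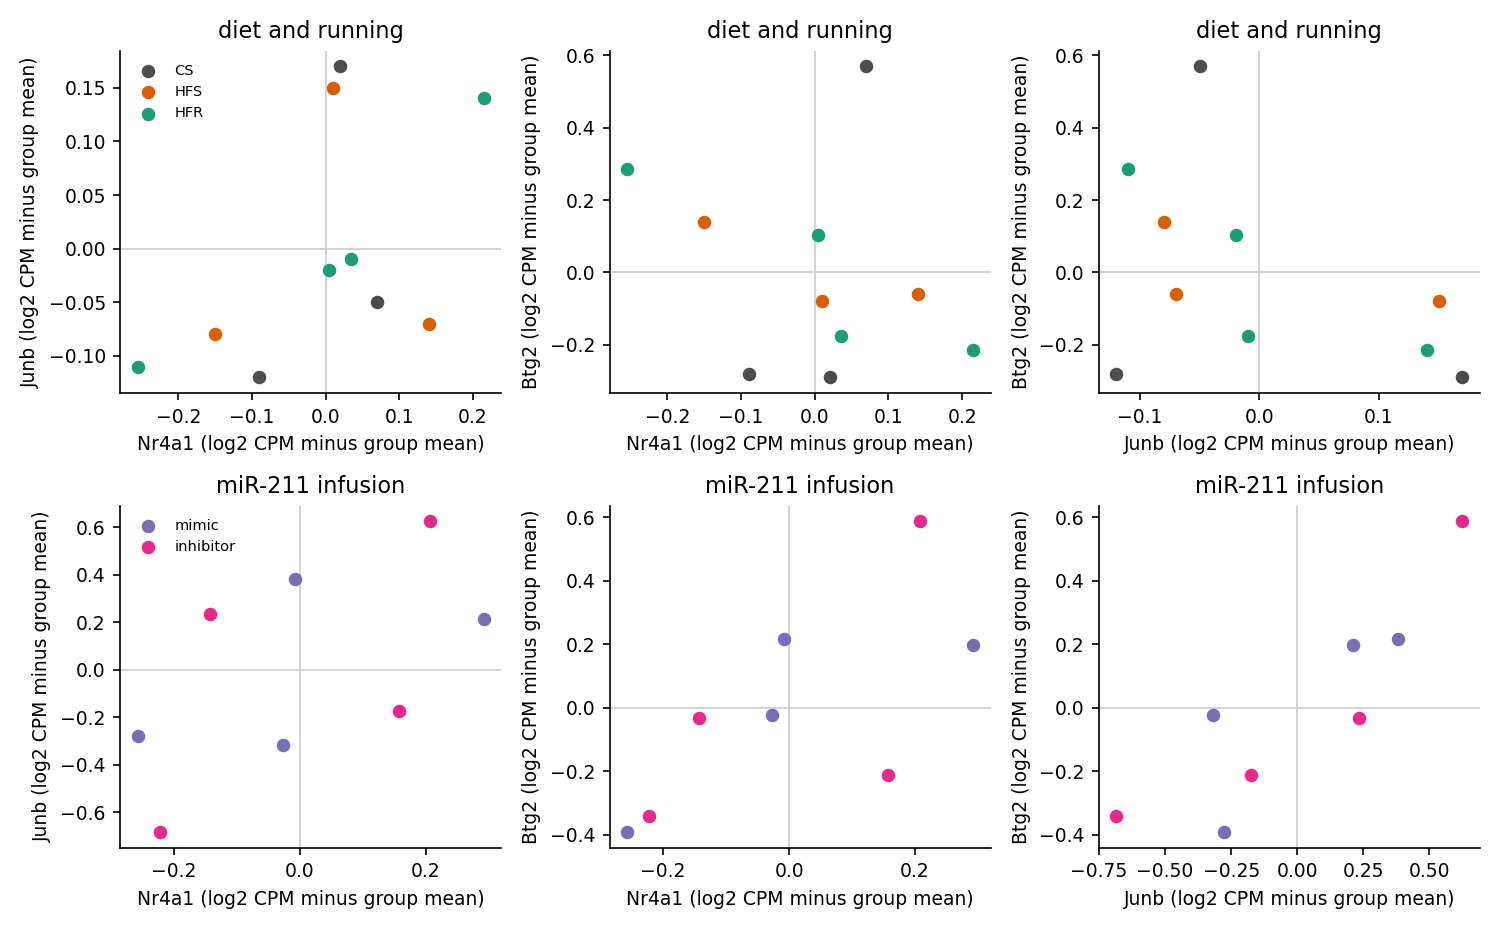
Deviation of each library from its group mean in log2 CPM, for the 3 pairs of *Nr4a1*, *Junb* and *Btg2*, in the 10 DIO libraries (top) and the 8 miR-211 libraries (bottom), with points coloured by group. The points of *Junb* and *Btg2* rise together in the miR-211 experiment (r = 0.88), while in the DIO experiment CS replicate 2 is the uppermost *Btg2* point and no pair has an adjusted p under 0.05.

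The count of one gene over another within a library needs no scaling between libraries, and it showed how unequally the 3 genes differed. The ratio of *Nr4a1* to *Junb* counts was 0.421 to 0.508 in CS, 0.647 to 0.825 in HFS and 0.734 to 0.86 in HFR, so every high-fat library was above every chow library. In the miR-211 experiment it was 0.111 to 0.178 in mimic and 0.0533 to 0.0968 in inhibitor, again without overlap and with the lower values where *Junb* was higher. The ratio of *Btg2* to *Junb* overlapped between the DIO groups, at 0.373 to 0.8 in CS, 0.467 to 0.639 in HFS and 0.371 to 0.628 in HFR. It did not overlap between mimic, at 0.237 to 0.324, and inhibitor, at 0.151 to 0.229. *Nr4a1* over *Btg2* was 0.635 to 1.13 in CS, 1.06 to 1.5 in HFS, 1.17 to 2.32 in HFR, 0.469 to 0.605 in mimic and 0.3 to 0.509 in inhibitor. These ratios include the comparisons that led to the choice of the genes and carry no test.

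**Figure D3:**
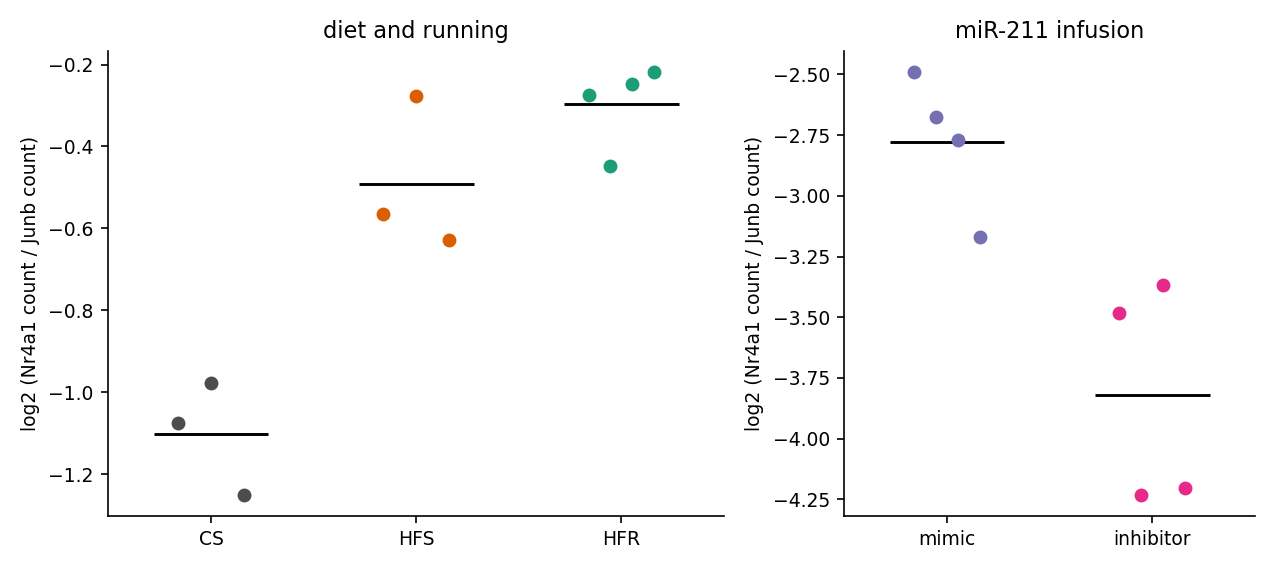
Log2 ratio of *Nr4a1* to *Junb* counts within each library (y axis, separate scale in each panel) by group (x axis), with points for libraries and black lines for group means. Group means are -1.10 in CS, -0.49 in HFS and -0.30 in HFR in the DIO experiment (left), and -2.78 in mimic and -3.82 in inhibitor (right).

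With group differences kept, *Junb* was the gene most like *Nr4a1* over the 10 DIO libraries of all 11891 other genes tested (Pearson r = 0.96, rank 1), and *Nr4a1* was the gene most like *Junb*. *Btg2* ranked 221 for *Nr4a1* (r = 0.67) and 298 for *Junb* (r = 0.62). These coefficients follow largely from the difference between chow and high-fat libraries, which is part of what chose the genes. In the 8 miR-211 libraries the order differed. *Btg2* ranked 65 for *Nr4a1* (r = 0.88) and *Junb* ranked 129 (r = 0.84) of 9624 other genes, while *Btg2* ranked 14 for *Junb* (r = 0.96).

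Among the genes that had a symbol in the sources, *Plekhf1* (r = 0.89, rank 3) and *Tmem63a* (r = 0.84, rank 19) came next for *Nr4a1* in the DIO libraries. They also came next for *Junb*, at r = 0.84 (rank 13) and r = 0.81 (rank 23). With group means removed, *Plekhf1* had r = -0.15 with *Nr4a1* and -0.47 with *Junb*, and *Tmem63a* had 0.72 and 0.31, so the likeness of *Plekhf1* was not seen within groups. For *Btg2* these were *Lrrc73* (r = 0.92, rank 5), *Ndufs7*, a subunit of mitochondrial complex I (r = 0.91, rank 8), and *Nipal4* (r = 0.89, rank 14). In the miR-211 libraries *Junb* was most like *Fos* (r = 0.99, rank 1), whose protein dimerizes with Jun proteins in AP-1, and then *Ptpn1*, a tyrosine phosphatase (r = 0.98, rank 2), and *Ccdc86* (r = 0.98, rank 3). *Btg2* was most like *Ccdc86* (r = 0.98, rank 1), followed among named genes by the NF-kB subunit gene *Nfkb2* (r = 0.98, rank 4) and the NF-kB inhibitor gene *Nfkbia* (r = 0.98, rank 5). *Nr4a1* was most like *Creb3l1* (r = 0.93, rank 10), *Ppp1r15a*, which encodes the regulatory subunit of an eIF2-alpha phosphatase (r = 0.92, rank 12), and *Sertad1* (r = 0.92, rank 13). Only 611 identifiers had a symbol, all from genes the study selected, so unnamed genes hold many of the ranks between.

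Other immediate early genes were read from lists of 67 genes including the 3, of which 27 had an identifier and 24 remained besides *Nr4a1*, *Junb* and *Btg2*. Of these, 22 have an identifier because the study selected them between mimic and inhibitor, and *Atf3* and *Nptx2* because it selected them in the DIO experiment. No other member of the NR4A or the BTG and TOB family had an identifier in the sources, and of the Fos and Jun families *Fos*, *Fosl1* and *Jun* did. The 20 genes from the miR-211 selection that were tested in the DIO experiment, which did not choose them, were mostly above 0 in HFS over CS. Their log2 difference was above 0 in 17 and below 0 in 3, with a median of 0.24, where 50.4% of all genes were above 0 and the median was 0.003. Of the 20, 6 had every HFS library above every CS library (4.81% of all genes), 4 had an unadjusted p under 0.05 (3 higher, 1 lower, beside 4.47% of all genes), and 0 were called in edgeR or DESeq2. In HFR over CS 13 were above 0 and 6 below, with a median of 0.10, where 48.3% of all genes were above 0. *Gadd45g*, at -0.0 after rounding, was counted on neither side. Of these 20 genes, 3 had an unadjusted p under 0.05 (1 higher, 2 lower, beside 4.28% of all genes), 1 had every HFR library above every CS library (2.57% of all genes), 2 had every one below (2.89% of all genes), and 0 were called in edgeR or DESeq2. In HFR over HFS 5 were above 0 and 14 below, with a median of -0.18, where 48.6% of all genes were above 0. Here *Csrnp1*, at -0.0 after rounding, was counted on neither side. In that comparison 3 had every HFR library below every HFS library (3.68% of all genes), 1 had an unadjusted p under 0.05 (4.24% of all genes), and 0 were called in edgeR or DESeq2. In that comparison *Nr4a1* read 0.21 ± 0.18 (SE), *Junb* 0.01 ± 0.16 and *Btg2* -0.18 ± 0.24.

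*Fos*, which encodes the AP-1 partner of Jun proteins, read 33.1, 21.9 and 40.1 CPM in CS, 52.9, 46.9 and 42.9 CPM in HFS, and 80.8, 92.9, 40.3 and 42.4 CPM in HFR. HFR replicates 1 and 2 were far above the others in *Fos*, which they were not in *Junb* at 39.1 and 36.7 CPM. The log2 difference was 0.59 ± 0.32 (SE) in HFS over CS and 1.02 ± 0.30 in HFR over CS, which did not pass in edgeR (adjusted p = 0.994 and 0.995). *Jun*, which encodes the c-Jun subunit of AP-1, had means of 52.3 ± 11.7 CPM in CS (SD, n = 3), 61.6 ± 5.66 in HFS (SD, n = 3) and 58.4 ± 7.98 in HFR (SD, n = 4), with overlapping groups. *Fosl1*, a further Fos family gene, was low, with means of 3.20, 1.05 and 1.60 CPM in the same order, and its log2 difference of HFS over CS was -1.59 ± 0.67 (edgeR adjusted p = 0.994). Among the rest, the log2 differences of HFS over CS farthest from 0 were those of *Atf3*, a stress-induced transcription factor gene (2.06 ± 0.82), *Sgk1*, a serum- and glucocorticoid-induced kinase gene (0.96 ± 0.29), *Zfp36*, which encodes an mRNA-destabilizing protein (0.94 ± 0.39), and *Arid5a* (0.65 ± 0.27), all with an edgeR adjusted p of 0.994. *Sgk1* was the 1 of these whose HFR libraries all lay below its HFS libraries, at 62.0 to 99.1 CPM against 102 to 122 CPM.

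**Figure D4:**
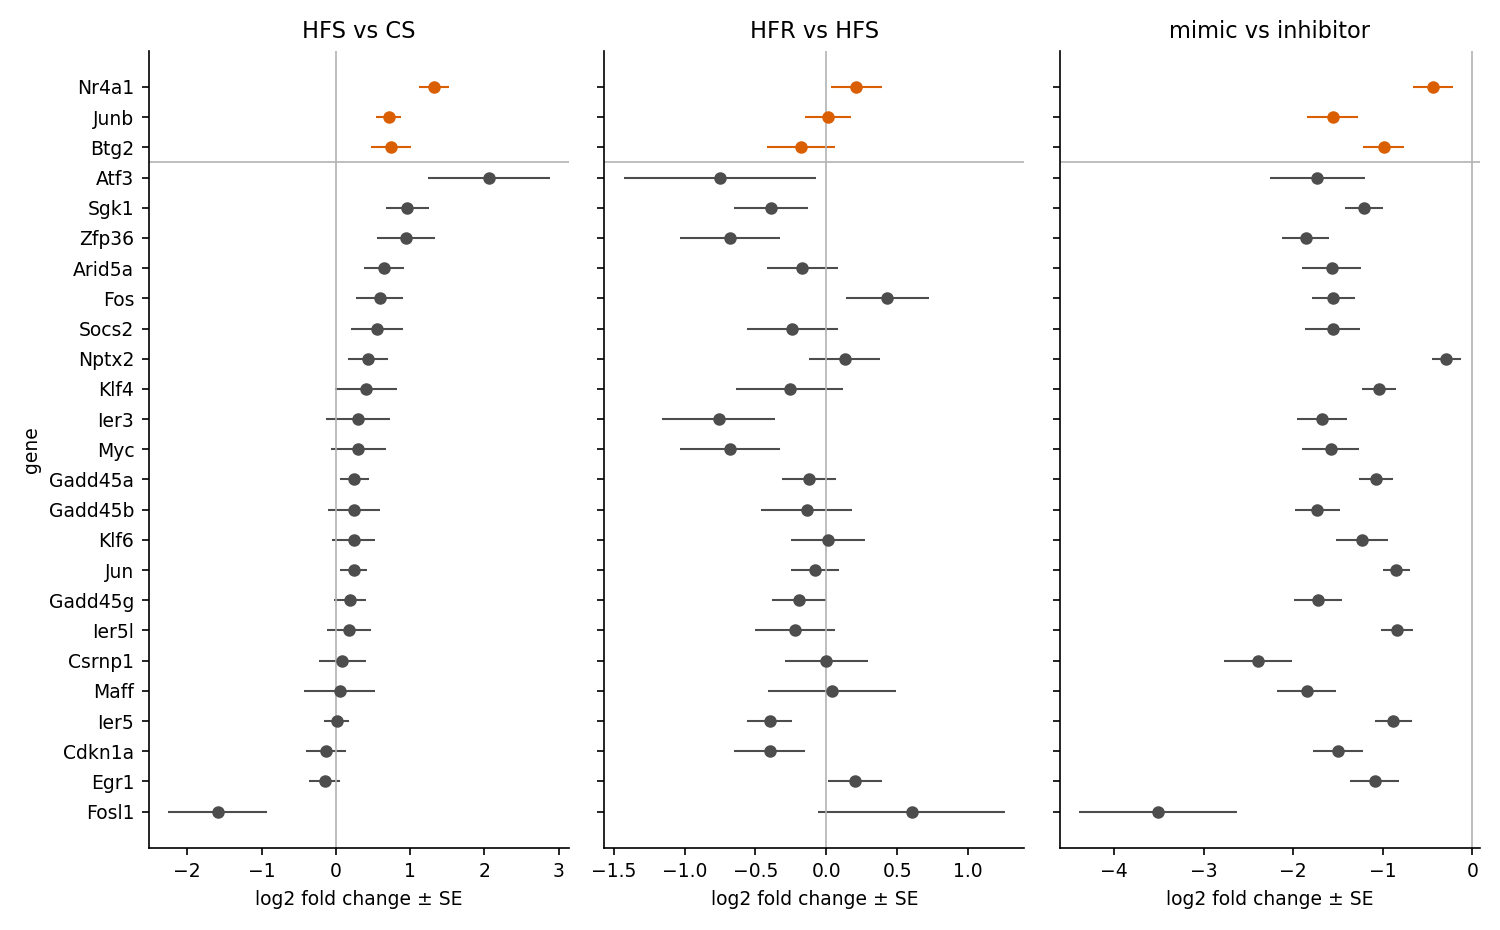
Log2 fold change with its standard error (x axis, a separate range in each panel) of *Nr4a1*, *Junb* and *Btg2* (orange, top) and of the 22 other listed immediate early genes tested in the DIO experiment (grey, ordered by the left panel), in HFS vs. CS, HFR vs. HFS and mimic vs. inhibitor. *Nr4a1* stands at 1.32 on the left and at -0.44 on the right, closer to 0 on the right than any gene drawn but *Nptx2* at -0.29. Most genes in the right panel were selected on that same comparison, so nothing is read from this rank.

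In mimic against inhibitor, the comparison that selected them, all 21 of these genes that were tested lay below 0, between -3.51 and -0.84 with a median of -1.56, where the median of all genes was 0.009. *Fos* had means of 72.4 ± 18.4 CPM in mimic (SD, n = 4) and 210 ± 61.7 CPM in inhibitor (SD, n = 4), a log2 difference of -1.55 ± 0.24 (SE), which is the size seen for *Junb*. *Jun* read -0.85 ± 0.15, which is near *Btg2*. *Nr4a1*, which was not selected there, was closer to 0 than each of those 21 genes. Selection on this comparison favours genes far from 0, so nothing is read from that rank.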

How the data were processed

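According to the study's methods, the authors prepared the libraries with a bulk form of MARS-seq. Reads were trimmed (Cutadapt), aligned to Rnor6 (STAR 2.7.9a), freed of PCR duplicates (SAMtools) and assigned to genes by HTSeq 0.13.5 in union mode. Strand was ignored, so reads of an overlapping antisense gene cannot be told apart. The deposited values are whole-number counts without normalization. Those of the miR-211 experiment were corrected for unique molecular identifiers, and for the DIO experiment this is not given in the sources used here. Rows for unassigned reads were left out of totals and tests (reads outside genes were 22.4% to 26.3% of the total in the DIO libraries). The miR-211 counts held no such rows.

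Counts were fitted in R 4.3.3 with edgeR 4.0.16 (filterByExpr, TMM, robust quasi-likelihood), 1 fit for the 10 DIO libraries (11892 genes) and 1 for the 8 miR-211 libraries (9625 genes), with Benjamini-Hochberg adjustment over all genes of a comparison and DESeq2 1.42.0 as an alternative. On simulated counts, the fit recovered 99% of 200 genes changed by a log2 of 1.5 in HFS vs. CS (11653 genes). In mimic vs. inhibitor it recovered 95% (9480 genes). The simulation gave every gene the same spread and changed no gene of low level. It does not give the power for smaller changes or for genes with a wider spread. Log2 CPM used a prior count of 2. Permutation tests were exact, two-sided and made in Python 3.11.15 with scipy 1.17.1. For correlations, libraries were permuted within groups. Counting intervals are exact Poisson intervals at 95% and cover counting error only.

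Groups came from the sample labels, which list each library as a replicate, and p-values measure the spread between these libraries. Libraries were treated as unpaired. Deviations of same-numbered libraries correlated between -0.12 and 0.15 in the DIO and 0.05 and 0.21 in the miR-211 experiment. Such correlations cannot show which libraries share a run. The study states that the running experiment was repeated, and the labels do not give the run of a library. A difference between runs could therefore not be entered in the fits. The 3 genes and the gene lists were chosen with earlier results of these data known. Besides the 3, values are given for listed genes of their families, for the 4 other listed genes with the largest change of HFS over CS, and for the 3 genes with a symbol most alike to each. Symbols came from lists of genes that the study selected, 611 in all, so 27 of 67 pathway genes (40.3%) and 15 of 61 markers (24.6%) could be looked up, and these lists are void as sets. The authors' fold change and p-value columns were not used. No sequences or coordinates are given.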

Additional observations from a re-analysis of the deposited data

Results flagged for a closer look

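None of the 9 values for *Nr4a1*, *Junb* and *Btg2* in groups of 4 libraries had a library standing apart by Dixon's ratio, where the largest was 0.667 against a critical value of 0.829. Of 30 such groups over all named genes, 2 did, both for *Fosl1*, and chance alone gives about 1 in 20. In HFR, replicate 2 held 0.737 CPM of *Fosl1* (4 counts) while the others held 1.99, 1.92 and 1.77 CPM (ratio 0.867). In mimic, replicate 4 held 13.4 CPM (17 counts) while the others held 3.28, 2.85 and 2.56 CPM (ratio 0.865). Mimic replicate 4 was also the highest mimic library in *Junb* (106 CPM) and *Btg2* (25.2 CPM) but not in *Nr4a1* (11.8 CPM). HFR replicate 2 was also the lowest HFR library in *Nr4a1* (26.9 CPM) and *Junb* (36.7 CPM) and the highest in *Btg2* (23.0 CPM).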

How the results depend on the processing

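Over 213 alternatives for *Nr4a1*, *Junb* and *Btg2* in the 4 comparisons, 203 kept the direction and the side of the threshold or, for a value with no test, stayed within 1 SD. The exceptions were *Junb* in HFR vs. CS, called by DESeq2 (0.73, adjusted p = 0.0505, with the adjusted p between 0.0505 and 0.954 over all alternatives), *Btg2* in HFS vs. CS without both CS 2 and HFS 2 (1.13, by DESeq2 1.12, an alternative added after seeing the data) and when libraries were left out in turn (0.58 to 1.10, the highest without CS replicate 2), and *Junb* in HFR vs. HFS, whose sign turned with the replicate block (-0.04), without both libraries (-0.02, by DESeq2 -0.01) and over libraries left out (-0.04 to 0.09). The cause was not tested. The count of called genes was 2 by DESeq2, 0 with the replicate block and 0 with only the 2 groups in HFS vs. CS, 17 by DESeq2, 8 with no filter and 0 with the replicate block in HFR vs. CS, 2 with the replicate block in HFR vs. HFS, and 194 by DESeq2 and 125 with no filter in mimic vs. inhibitor. By DESeq2 without both libraries it was 49, 33 and 5 in the DIO comparisons. Over libraries left out it was 0 to 2, 0 to 3, 0 and 0 to 111. The last was 111 without inhibitor replicate 1 and 0 without mimic replicate 1 or 3. With the replicate block *Nr4a1* was called in neither HFS vs. CS nor HFR vs. CS, and *Junb* in mimic vs. inhibitor was called, as it also was by DESeq2 and without inhibitor replicate 3. *Btg2* was called there by DESeq2 and with no filter. These comparisons led to the choice of the genes, so none of these calls is independent support. The labels do not state any pairing by replicate number. For correlations, *Nr4a1* with *Btg2* in the DIO libraries was 0.67 and *Junb* with *Btg2* 0.62 with group means kept, and the former was -0.89 without both libraries and -0.86 to 0.00 over libraries left out. *Junb* with *Btg2* in the miR-211 libraries was 0.96 with group means kept (adjusted p = 0.0312) and 0.80 to 0.92 over libraries left out. Counting error was up to 25.8% of the *Nr4a1* value in the miR-211 experiment.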
